A study of Mus musculus with 4 samples.

Results

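The aryl hydrocarbon receptor (AHR) is a ligand-activated transcription factor, and a set of 7 genes, made up of the receptor, its partners and regulators and the acyltransferase gene Lpcat2, is described here in alveolar macrophages (AMs), which live in the airspaces of the lung. The 7 genes were taken by symbol from a table of 54532 genes and are Ahr, Arnt, Arnt2, Ptges3, Ahrr, Tiparp and Lpcat2. Bulk RNA-seq had been performed on 2 Control and 2 Tumor libraries, all from AMs of female wild-type mice, given in the study's methods as BALB/c mice aged 8 to 10 weeks. The Control mice carried no tumor, and the Tumor mice carried primary 4T1 tumors of 2 weeks, grown from a mouse breast cancer line that was injected into the mammary fat pad and metastasises to lung by itself. The labels do not say whether a library came from 1 mouse or from a pool, so the p-values below measure the spread between libraries only, which may be technical.

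Without a ligand, AHR waits in the cytosol in a complex with the chaperone HSP90 and the co-chaperone p23. A ligand sends it to the nucleus, where it pairs with ARNT and binds a short DNA element with the core GCGTG, the xenobiotic response element. A pair of feedback proteins limit the response, the repressor AHRR, which competes for ARNT, and the ADP-ribosyltransferase TIPARP, which modifies AHR and promotes its loss. ARNT is shared with the hypoxia-inducible factors, and the genes of AHR, ARNT, ARNT2 and AHRR belong to the bHLH-PAS family. The comparison is of RNA levels, which do not measure the activity of AHR. The study places this time in a pre-metastatic stage, before metastases were seen in the lung.

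The promoters of the feedback genes Ahrr and Tiparp, which are textbook AHR targets, are shown first to place the AHR core motif in them, and that of Lpcat2 because it was higher in the Tumor libraries along with Tiparp. Each sequence is from RefSeq on build GRCm38.p6, runs 5′ to 3′ on the strand of the gene from 250 bases before to 50 bases after the start of transcription, and has every GCGTG of either strand in capitals (CACGC where the match lies on the other strand). They lie at chr13:74292282-74292581 on the minus strand for Ahrr, chr3:65528197-65528496 on the plus strand for Tiparp and chr8:92855083-92855382 on the plus strand for Lpcat2.
Ahrr: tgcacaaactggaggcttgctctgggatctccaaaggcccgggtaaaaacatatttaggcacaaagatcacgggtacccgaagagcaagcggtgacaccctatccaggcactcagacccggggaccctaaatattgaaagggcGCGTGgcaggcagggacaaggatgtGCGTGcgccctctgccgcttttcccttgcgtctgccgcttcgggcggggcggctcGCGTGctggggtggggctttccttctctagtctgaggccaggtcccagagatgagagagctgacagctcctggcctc
Tiparp: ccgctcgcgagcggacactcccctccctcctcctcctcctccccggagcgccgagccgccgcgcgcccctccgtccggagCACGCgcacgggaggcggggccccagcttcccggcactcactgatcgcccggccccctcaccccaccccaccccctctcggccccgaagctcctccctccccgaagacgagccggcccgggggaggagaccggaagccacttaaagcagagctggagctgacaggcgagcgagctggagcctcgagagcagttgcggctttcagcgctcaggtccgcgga
Lpcat2: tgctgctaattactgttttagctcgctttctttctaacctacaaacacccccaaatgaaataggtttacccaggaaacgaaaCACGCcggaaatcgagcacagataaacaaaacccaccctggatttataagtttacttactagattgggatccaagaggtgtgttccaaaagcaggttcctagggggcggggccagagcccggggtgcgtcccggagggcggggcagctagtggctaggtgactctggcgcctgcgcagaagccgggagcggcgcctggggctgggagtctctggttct

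The Ahrr promoter held 3 matches, all on the strand of the gene, with first bases 107, 82 and 27 bases before the start. The last of them was also the only match to the longer motif TNGCGTG, which contains GCGTG, in the promoters of the 7 genes. Tiparp and Lpcat2 each held 1 match on the other strand, 170 and 168 bases before the start. RefSeq promoters were found for 6 of the 7 genes, Ahr being the gene without one. Arnt held 1 match, Ptges3 held 2 and Arnt2 held 0. A match is a short word and is common. Of 32851 promoters of this length, 32.4% held at least 1 GCGTG on either strand, 3.91% held at least 3 and 5.07% held TNGCGTG.

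Total counts ranged from 16167147 to 19205737 per library, and levels are given as CPM, counts scaled to the TMM-adjusted library size. A value of 3 counts, or 0.153 to 0.190 CPM, was taken as the floor, which covers counting error only. The spread within a group exceeded counting noise, as the chi-square per gene was 1.81 for the Control and 2.30 for the Tumor pair. The AM label was checked against 14 AM markers, none of which was at 0 in a Control library. Their summed level was 16427 to 16572 CPM in the Control and 12565 to 12707 CPM in the Tumor libraries, and 12 of the 14 were called lower and 1 higher, with a median log2 fold change of -0.46. Markers of other cells moved with the groups. All 10 neutrophil markers, all 5 eosinophil markers, all 6 basophil and mast cell markers and 9 of 10 hepatocyte markers were higher in the Tumor libraries. Their summed levels were 9.87 to 10.01 CPM against 3752 to 3794 CPM for neutrophil, 0.634 to 0.640 against 2629 to 2669 CPM for eosinophil, 0.267 to 0.317 against 64.0 to 75.0 CPM for basophil and mast cell, and 142.3 to 143.4 against 823.8 to 825.2 CPM for hepatocyte genes. Trf, the hepatocyte marker that was lower, made up nearly all of that Control sum, and the other 9 summed to 0.160 to 0.190 CPM in the Control and 692.2 to 699.99 CPM in the Tumor libraries. In both Control libraries Elane, 4 of the basophil and mast cell markers (Mcpt8, Fcer1a, Ms4a2 and Prss34) and 7 of the hepatocyte markers, Alb among them, were at 0. The part of these cells in the results below was not tested, and in bulk RNA fewer cells of a type and less RNA per cell cannot be told apart.

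Across the table, 53.8% of 14256 tested genes were called between Tumor and Control with an adjusted p under 0.05 (edgeR's quasi-likelihood test, Benjamini-Hochberg adjustment over all genes tested), 29.0% as higher and 24.8% as lower in the Tumor libraries. These are 4136 higher and 3535 lower genes, against 9395 and 867 when libraries are scaled on the 14 AM markers. Of the 7 genes, 6 passed the filter on low counts and 5 were called, namely Ahr, Lpcat2, Tiparp and Arnt as higher and Ptges3 as lower. Ahrr was tested and not called, and Arnt2 had too few counts to be tested. The median log2 fold change of the 6 tested genes was 0.63, against 0.02 for all genes tested. With 2 libraries against 2, an exact permutation test of a single gene cannot go below a two-sided p of 0.333.

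**Figure D1:**
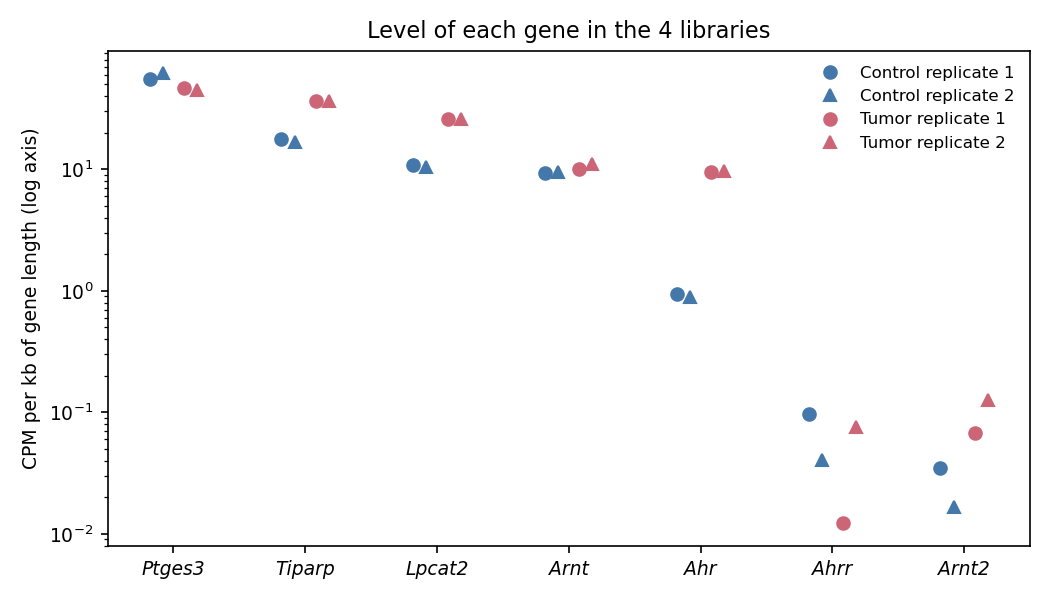
Level of each of the 7 genes in each library, as CPM divided by gene length in kb, on a log axis, with Control libraries in blue and Tumor libraries in red. Ahr moved from 0.894 to 0.935 in the Control to 9.49 to 9.58 in the Tumor libraries, next to Arnt, whereas Ahrr and Arnt2 stayed at or below 0.126.

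The receptor gene Ahr (ENSMUSG00000019256, GRCm38) spans 35497974 to 35535038 of chromosome 12, minus strand. Its counts were 108 and 87 under Control and 1013 and 1159 under Tumor conditions. Scaled to library size, the level was 5.76 and 5.51 CPM in the Control and 58.5 and 59.1 CPM in the Tumor libraries, so that the groups were far apart and each pair of replicates lay close together. The level rose 10.4-fold, a log2 fold change of 3.38 ± 0.0983 (SE) (edgeR, adjusted p = 1.72e-21). By size of change, whether up or down, Ahr ranked 749 of the 14256 tested genes. Per gene length, 26.2% and 25.7% of tested genes lay below Ahr with Control and 67.1% and 67.4% with Tumor mice.

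The genes whose profile over the 4 libraries lay closest to that of Ahr were Tmem71, Csf3r and Oas3. Likeness was measured as the root mean square difference of log2 CPM, each gene centred on its own mean, among the 9559 tested genes averaging 100 counts or more, and was 0.026, 0.029 and 0.034. Csf3r, which encodes the G-CSF receptor of the neutrophil lineage, went from 65.8 to 657.8 CPM. Its Control level lay above the sum of the 10 neutrophil markers there, which was 9.87 to 10.01 CPM. Tmem71 rose by 3.39 and Oas3, an interferon-inducible gene, by 3.44 on the log2 scale. Neutrophil and eosinophil markers rose in the same 2 libraries, and the part of these cells in the rise of Ahr was not tested.

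ARNT is the obligate partner of AHR in the nucleus. Arnt (ENSMUSG00000015522, plus strand of chromosome 3, 95434388 to 95497240) had 1396 and 1191 counts in the Control and 1403 and 1746 in the Tumor libraries, or 74.5 and 75.5 against 81.0 and 89.0 CPM. The Tumor values were higher without overlap but spread more widely than the Control values. On the log2 scale the difference was 0.18 ± 0.0533 (SE), a 1.14-fold rise (edgeR, adjusted p = 0.00476). This call was lost without Control replicate 1 (0.16, adjusted p = 0.0562), without Tumor replicate 2 (0.11, adjusted p = 0.123) and with DESeq2 (0.18, adjusted p = 0.0529). Rrp8, Rps6kc1 and Selenoh had the profiles closest to Arnt, with differences of 0.0048 to 0.012.

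Arnt2 encodes a paralog of ARNT best known from the nervous system. Arnt2 (ENSMUSG00000015709, minus strand of chromosome 7, 84246278 to 84410176) had 5 and 2 counts in the Control and 9 and 19 in the Tumor libraries. These are levels of 0.267 and 0.127 against 0.520 and 0.968 CPM, and 1 Control library lay under the floor. The pooled Tumor to Control ratio was 3.74, with an exact 95% counting interval of 1.60 to 10.1. Without the filter on low counts, the edgeR estimate was 1.85 ± 0.698 (log2, SE; adjusted p = 0.0279). Per gene length, Arnt was between 88.2 and 268.1 times as abundant as Arnt2 in the 3 libraries in which Arnt2 was above the floor.

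Per gene length, the number of Ahr reads for each Arnt read was 0.101 and 0.0949 in the Control libraries. It was 0.938 and 0.862 in the Tumor libraries, so that transcripts of the receptor came close to parity with those of its partner. Without division by gene length the group means of this ratio were 0.0752 and 0.693. The ratios of the other partners of ARNT covered a narrower range. Hif1a, which encodes the oxygen-regulated subunit HIF-1α, had 2.79 and 2.68 reads per Arnt read in the Control and 3.17 and 2.86 in the Tumor libraries. Epas1, which encodes HIF-2α, had 0.655 and 0.641 against 0.474 and 0.460. Counts of RNA do not give the ratio of the proteins.

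**Figure D2:**
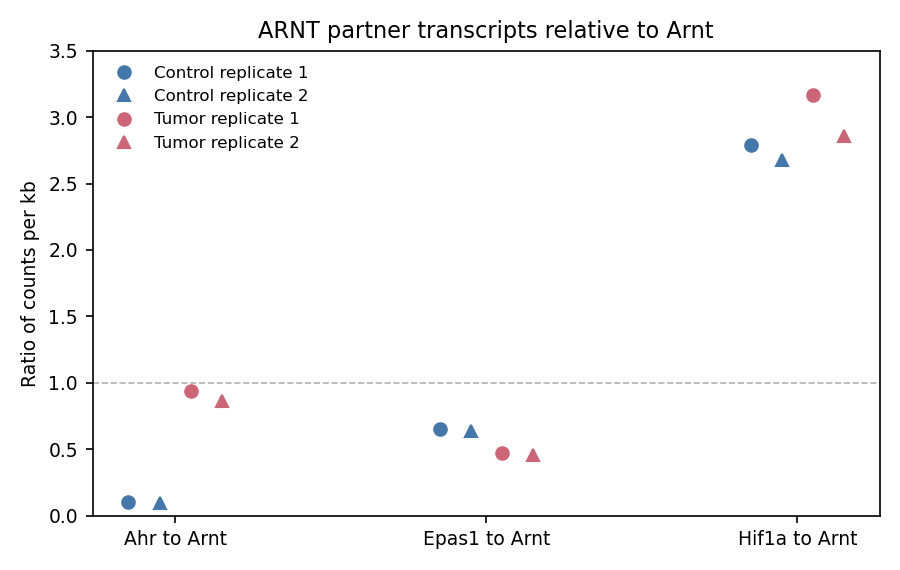
Ratio of counts per kb of Ahr, Epas1 and Hif1a to those of Arnt in each library, on a linear axis with the dashed line at equal levels. Ahr rose from at most 0.101 to at least 0.862 of Arnt, while Epas1 went from at least 0.641 to at most 0.474 and Hif1a lay between 2.68 and 3.17.

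Ptges3 encodes p23, the co-chaperone that holds HSP90 in its client-bound form, and the protein is also known as a cytosolic prostaglandin E synthase. Ptges3 (ENSMUSG00000071072, plus strand of chromosome 10, 128058954 to 128077272) was the most abundant of the 7 genes per length in all 4 libraries. It had 2316 and 2158 counts in the Control and 1799 and 1953 in the Tumor libraries, or 123.6 and 136.7 against 103.9 and 99.5 CPM. The Tumor values lay below both Control values. On the log2 scale the difference was -0.35 ± 0.0473 (SE) (edgeR, adjusted p = 3.12e-07). This direction depends on the scaling, since scaling on the 14 AM markers turned it to 0.09 with an adjusted p of 0.111.

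That scaling, which sets the median change of the AM markers to 0, shifted the median over tested genes from 0.02 to 0.46 on the log2 scale, and the directions given here hold relative to TMM scaling. The rises of Ahr, Lpcat2, Tiparp and Arnt became 3.82, 1.72, 1.51 and 0.62 under it. A processed pseudogene of p23, Ptges3-ps on chromosome 6, had 726 and 496 counts in the Control and 445 and 575 in the Tumor libraries, and reads can be split between it and Ptges3. The profiles closest to Ptges3 were those of Polr1b, Pvr and Mapre3, at 0.0083 to 0.018.

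The 10 other genes of the HSP90 chaperone machinery were each abundant enough to be tested, and 7 were called higher and 2 lower. Over all genes tested, 29.0% were called higher and 24.8% lower. The median log2 fold change of the 10 was 0.16, against 0.02 for all genes. The HSP90 genes themselves had small log2 fold changes, 0.05 ± 0.0265 (SE) for the stress-inducible Hsp90aa1 (adjusted p = 0.0936) and -0.14 ± 0.0181 (SE) for the constitutive Hsp90ab1 (adjusted p = 1.13e-07). Cdc37, a co-chaperone for kinases, changed by -0.16. Under the AM marker scaling Hsp90ab1 and Cdc37 were instead higher, by 0.30 and 0.28, and Hsp90aa1 was called higher by 0.49. Hsp90aa1 was also called with total counts as library sizes (0.12) and with at least 10 counts in every library (0.078). Fkbp5, a glucocorticoid-responsive immunophilin gene, rose by 1.40 ± 0.0420 (SE), from 70.1 to 185.6 CPM as group means. Rises between 0.11 and 0.36 were found for Ahsa1, Ppid, Hspa8, Stip1 and Fkbp4. Without Control replicate 1 the number of higher genes was 4. Stip1 was not called then, nor without Tumor replicate 1 or with DESeq2. Fkbp4 was called without Tumor replicate 2, but not without any of the other 3 libraries, with DESeq2 or with no filter on low counts.

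AHRR is both a target and a repressor of AHR. Ahrr (ENSMUSG00000021575, minus strand of chromosome 13, 74211118 to 74292331) had 17 and 6 counts in the Control and 2 and 14 in the Tumor libraries, or 0.907 and 0.380 against 0.115 and 0.714 CPM. The groups overlapped, and Tumor replicate 1 was under the floor. On the log2 scale the difference was -0.61 ± 0.639 (SE) (edgeR, adjusted p = 0.443). It turned positive when either Control replicate 1 (0.15) or Tumor replicate 1 (0.10) was left out, and it was -2.45 without Tumor replicate 2, with an adjusted p of 0.0588. The pooled ratio of 0.650 had an exact 95% counting interval of 0.321 to 1.29, which leaves out the spread between libraries. Per gene length, Ahr reads for each Ahrr read numbered 9.73 and 22.2 in the Control libraries and 126.8 in Tumor replicate 2, and no ratio is given for Tumor replicate 1, where Ahrr was under the floor.

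Tiparp, also called Parp7, is the other feedback gene and was far more abundant. Tiparp (ENSMUSG00000034640, plus strand of chromosome 3, 65528410 to 65555518) had 1447 and 1162 counts in the Control and 2740 and 3111 in the Tumor libraries. The levels were 77.2 and 73.6 against 158.2 and 158.6 CPM, with no overlap and a smaller spread in the Tumor pair. On the log2 scale the difference was 1.07 ± 0.0433 (SE), 2.10-fold (edgeR, adjusted p = 3.72e-18). Ctdsp2, Klf7 and Birc2 had the profiles closest to Tiparp over the 4 libraries, with root mean square differences of 0.0068 to 0.013.

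Tiparp was read beside 18 other genes that add or remove ADP-ribose. All 18 were tested, 9 were higher and 4 lower, beside 29.0% higher and 24.8% lower over all genes tested. The median log2 fold change of the 18 was 0.17, against 0.02 for all genes. Under the AM marker scaling 16 of the 18 were higher and 1 lower. The rise of Tiparp was larger than any of theirs. The next was Parp10, a mono-ADP-ribosyltransferase gene, at 0.67 ± 0.0790 (SE), followed by Parp6 at 0.54 ± 0.0990 (SE). Parp16, whose product sits in the endoplasmic reticulum membrane, fell by 0.97 on the log2 scale. Macrod1, which encodes a hydrolase that removes ADP-ribose, changed by -0.40, a call that was lost without Control replicate 2 (-0.33), without Tumor replicate 2 (-0.22), with DESeq2 and under the AM marker scaling (0.04). DESeq2 called 5 of the 18 genes higher.

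LPCAT2 is an acyltransferase of inflammatory macrophages that makes platelet-activating factor (PAF) and rebuilds membrane phosphatidylcholine. Lpcat2 (ENSMUSG00000033192, plus strand of chromosome 8, 92855339 to 92919279) had 689 and 557 counts in the Control and 1520 and 1710 in the Tumor libraries, or 36.8 and 35.3 against 87.8 and 87.1 CPM. The groups were well apart. On the log2 scale the difference was 1.28 ± 0.0596 (SE), 2.42-fold (edgeR, adjusted p = 9.63e-17). Its closest profiles were those of Gm45222, Antxr2 and Hsph1, at 0.0095 to 0.016. Lpcat2b, a related gene of the mouse, had 0 counts in all 4 libraries, which leaves it below the floor.

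Of 13 other genes of phospholipid reacylation and PAF, 11 were tested, 4 were higher and 1 was lower. Over all genes tested, 29.0% were higher and 24.8% lower. The median log2 fold change of the 11 was 0.09, against 0.02 for all genes. Under the AM marker scaling 11 were higher and 0 lower. Lpcat1, Lpcat3 and Lpcat4, the other members of the family, had log2 fold changes of 0.09, -0.07 and 0.14 and were not called, whereas under the AM marker scaling all 3 were called higher, by 0.53, 0.37 and 0.58. Mboat1, a lysophospholipid acyltransferase gene, had 2 and 1 counts in the Control, both under the floor, and 194 and 228 in the Tumor libraries, a pooled ratio of 131.5 with an exact 95% counting interval of 44.7 to 640.1. Pla2g7, which encodes the PAF acetylhydrolase of plasma, rose by 2.13 ± 0.0446 (SE), from 49.9 to 218.9 CPM as group means. Pafah1b2 encodes a catalytic subunit of an intracellular PAF acetylhydrolase and changed by -0.21, or by 0.23 under the AM marker scaling. Ptafr, the gene of the PAF receptor, rose by 0.19 ± 0.0386 (SE), and this gene was named after its value was seen, as was Pafah2, which went from 25 and 11 to 57 and 43 counts. Without Control replicate 2 the number of lower genes was 2.

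**Figure D3:**
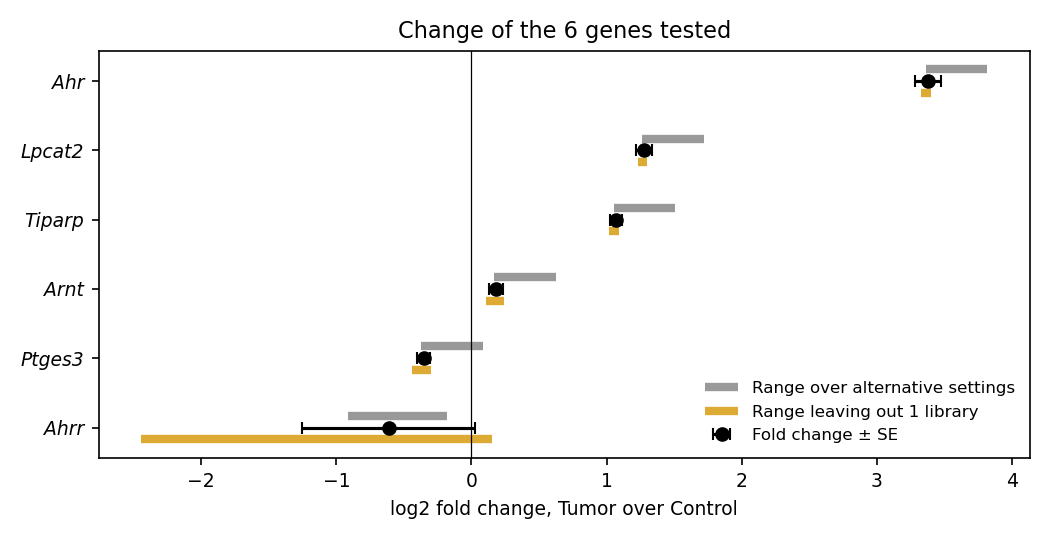
Log2 fold change of Tumor over Control for the 6 genes tested, with points and bars for the edgeR value ± SE, grey bars for the range over the alternative scalings, filters and tests, and yellow bars for the range when 1 library is left out. Ahr, Lpcat2 and Tiparp stay above 1 throughout, Ptges3 reaches 0.09 under the AM marker scaling and Ahrr runs from -2.45 to 0.15.

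Overlap with 1 of the 7 was found for 8 annotated genes, of which 5 lie on the other strand, and the strand setting of the counting is not given. Gm45472 shares 287 exon bases with Lpcat2 and had 4 and 5 counts in the Control and 9 and 17 in the Tumor libraries. 4931440P22Rik shares 223 exon bases with Tiparp and had 51 and 33 against 81 and 68 counts. Gm48236 shares 127 exon bases with Ahr and had 0 and 0 against 2 and 2 counts. Gm30873 shares 214 exon bases with Arnt2 and, like Gm25790 within Arnt2 and Gm22151 within Lpcat2, had 0 in all libraries. Gm42672 lies within Arnt and Capns2 within Lpcat2, and both share 0 exon bases with them.

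In the order of levels per gene length the genes stood as Ptges3, Tiparp, Lpcat2, Arnt and Ahr in both groups, with Ahrr and Arnt2 far below them. In CPM per kb, Lpcat2 was at 10.8 and 10.4 and Arnt at 9.30 and 9.42 in the Control libraries, next to each other without overlap. In the Tumor libraries the nearest neighbours above the floor were Arnt, at 10.1 and 11.1, and Ahr, at 9.49 and 9.58. Ahrr and Arnt2 did not overlap in the Control libraries, where Ahrr was the higher of them, but rested on 2 to 17 counts. In the Tumor libraries Arnt2 was the higher within each library, and the ranges overlapped.

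The genes that respond to AHR moved in both directions. A list of 14 reported AHR-responsive genes held none of the 7 described above. In it 10 genes were tested, 6 were higher and 3 lower, beside 29.0% higher and 24.8% lower over all genes tested. The median log2 fold change of the 10 was 0.45, against 0.02 for all genes. The classical P450 targets were near 0. Cyp1a1 had 1 count in Control replicate 2 and 0 elsewhere, and Cyp1b1 had 0 in all libraries, so neither was detectable above the floor. Cyp1a2, which is abundant in liver, had no count in either Control library (0 and 0) and reached 22 and 30 counts with tumor, a level at least 6.68-fold higher, in the 2 libraries in which 9 of 10 hepatocyte markers were higher. Aldh3a1 had at most 2 counts, and Ugt1a6b had 1 and 1 against 5 and 15.

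Nqo1, the gene of a quinone reductase, had 8 and 7 against 59 and 79 counts and rose by 3.08 ± 0.354 (SE). Serpinb2, which encodes the plasminogen activator inhibitor PAI-2, had the largest rise among the genes of the list with counts in the Control libraries, from 19 and 8 to 2042 and 2137 counts, by 7.17 ± 0.130 on the log2 scale (SE), with 7.77 without Control replicate 1 and 6.78 without Control replicate 2. Tnfaip6, the gene of the hyaluronan-binding protein TSG6, rose by 1.55, the xanthine oxidoreductase gene Xdh by 0.49 and the amino acid transporter gene Slc7a5 by 0.41. Nfe2l2, which encodes the oxidative stress factor NRF2, fell by 0.97, from 310.4 to 159.1 CPM as group means. Ereg, the gene of the growth factor epiregulin, fell by 2.40, from 217.6 to 41.2 CPM. Cd274, the gene of PD-L1, changed by -0.12, with 0.32 under the AM marker scaling and -0.05 and no call with total counts as library sizes. Ugt1a6a was at 0.13 and not called. With at least 10 counts required in every library, 3 of the genes were called higher.

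**Figure D4:**
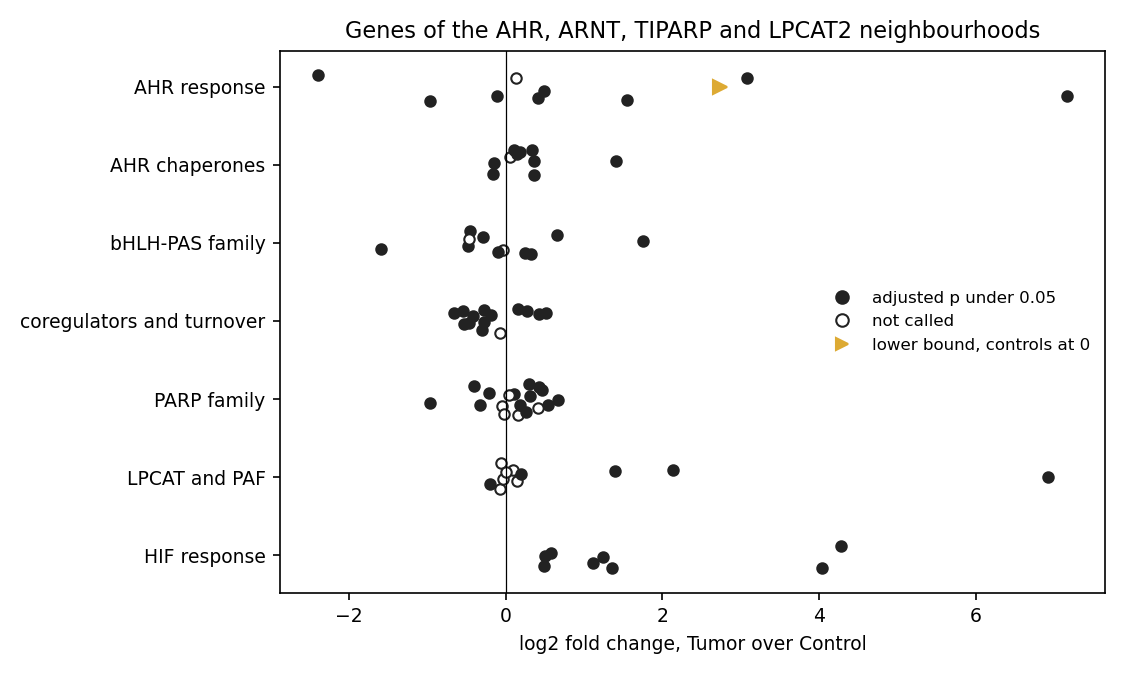
Log2 fold change of Tumor over Control for each tested gene of the 7 gene lists, with filled circles for an adjusted p under 0.05, open circles for genes not called and a triangle for the lower bound of Cyp1a2. All 8 tested HIF response genes lie above 0, while AHR response genes lie between -2.40 and 7.17.

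Of 18 other bHLH-PAS genes and coactivators 11 were tested, 4 were higher and 5 lower (6 and 1 under the AM marker scaling). Over all genes tested, 29.0% were higher and 24.8% lower. The median log2 fold change of the 11 was -0.10, against 0.02 for all genes. The circadian repressor gene Per1 rose by 1.76 ± 0.0294 (SE), from 163.5 to 551.8 CPM as group means, and the coactivator gene Ncoa3 by 0.65. Per2 and Clock changed by -0.49 and -0.46, calls that were lost under the AM marker scaling at -0.05 and -0.02. Hif1a rose by 0.32 ± 0.0360 (SE), with an adjusted p of 1.72e-08, and Epas1 changed by -0.29 ± 0.0831 (SE), with an adjusted p of 0.00415, or by 0.15 and without a call under the AM marker scaling. Without Control replicate 1, and likewise without Tumor replicate 2, the number of lower genes was 3.

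The genes that respond to HIF, the other users of ARNT, were higher together. Of 9 genes 8 were tested, with a median log2 fold change of 1.18 against 0.02 for all genes. All 8 were called higher, beside 29.0% of all genes tested. The number was 7 with DESeq2, with no filter on low counts, with the replicate number as a block and when any 1 of the 4 libraries was left out, and 6 with at least 10 counts in every library. Ankrd37, which had 9 and 3 against 19 and 14 counts, was closest to the threshold (adjusted p = 0.0460) and is named here after its values were seen. Vegfa, the gene of the vascular endothelial growth factor, had 65 and 61 counts in the Control and 1058 and 1151 in the Tumor libraries and rose by 4.03 ± 0.108 (SE). Egln3, which encodes a HIF prolyl hydroxylase, had 3 and 7 against 87 and 126 counts, a rise of 4.27 that was 3.66 without Control replicate 1 and 5.09 without Control replicate 2. Adm, with 3 to 8 counts, was not tested. What part the cells whose markers rose in the Tumor libraries had in this was not tested.

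Among 14 genes of nuclear coregulators, nuclear export and ubiquitin ligases linked to AHR, all tested, 4 were higher and 9 lower. Over all genes tested, 29.0% were higher and 24.8% lower. The median log2 fold change of the 14 was -0.28, against 0.02 for all genes. The acetyltransferase genes Crebbp and Ep300 rose by 0.51 and 0.42. Relb, the gene of an NF-kB subunit that also binds AHR, changed by -0.66, and Med1 of the Mediator complex by -0.54. The call of Med1 was lost under the AM marker scaling, at -0.10 (edgeR, adjusted p = 0.113). Of the ubiquitin ligase genes, named after their values were seen, Cul4b had a value of -0.07 and was not called, and Ddb1, Tbl3 and Stub1 changed by -0.28, -0.53 and -0.27. Under the AM marker scaling Cul4b (0.37) and Ddb1 (0.16) were called higher, and Tbl3 (-0.09) and Stub1 (0.17) were not called. Stub1 was also not called without Control replicate 1 (-0.24), without Tumor replicate 1 (-0.18), with DESeq2 (-0.28) or with total counts as library sizes (-0.21). Under the AM marker scaling 8 of the 14 genes were higher and 1 lower.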

How the data were processed

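Per the study's methods, alveolar macrophages were purified, RNA was extracted with TRIzol, and NEBNext Ultra libraries were sequenced as paired-end reads on an Illumina HiSeq instrument. The authors aligned reads with HISAT2 2.0.5 (version also in the submitters' processing notes) and used featureCounts to count them. Deposited were these raw counts, with 1 column for each library and no normalization. The build, strand setting and handling of reads with several matches are not given in the sources used here. All 7 genes had the coordinates of GENCODE M21, and 98.3% of matched identifiers did, so GRCm38 is used.

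Analysis used edgeR 4.0.16 under R 4.3.3: filterByExpr at a minimum count of 10 (14256 genes kept), TMM scaling, and the quasi-likelihood test on group alone, which leaves 2 residual degrees of freedom. The test moderates the dispersion of each gene with that of all genes tested, so its p-values do not rest on 2 degrees of freedom alone. Adjusted p-values are Benjamini-Hochberg values over all genes tested, at a threshold of 0.05. The test was checked on simulated counts. The SE is the log2 fold change over the square root of F, and the nearest profiles use log2 CPM with a prior count of 2. CPM per kb uses the gene length of the table. Named were the 7 genes, the AHR response and chaperone lists, the 2 largest rises and 2 largest falls of each other list among called genes that averaged 50 counts or more in their higher group, and the 3 nearest profiles. Genes of the cell type lists could also be named, and 1 chaperone gene is not reported here. Hif1a, Epas1, the other Lpcat genes, Ptges3-ps and Adm were added for context. Members and lists were chosen with earlier results of these data known. Alternatives included DESeq2 1.42.0, limma-voom (limma 3.58.1), other scalings and filters, and leaving out each library.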

Additional observations from a re-analysis of the deposited data

How the results depend on the processing

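Ahr, Tiparp and Lpcat2 kept their direction and their call under the 10 alternative settings run and when each library was left out. Arnt lost its call with DESeq2 (0.18) and, over the libraries left out, ran from 0.11 to 0.24. Ptges3 turned to 0.086 with the AM marker scaling, and Ahrr ran from -2.45 to 0.15, with positive values without Control replicate 1 (0.15) and without Tumor replicate 1 (0.10). The AM marker scaling also turned Cd274 (0.32), Hsp90ab1 (0.30), Cdc37 (0.28), Pafah1b2 (0.23), Macrod1 (0.038), Epas1 (0.15), Cul4b (0.37), Ddb1 (0.16), Stub1 (0.17), Lpcat3 (0.37) and Ptges3-ps (0.085). Lpcat1 was -0.052 without Control replicate 2, and Ugt1a6a ran from -0.011 to 0.25 over the libraries left out, lowest without Tumor replicate 1. That scaling gave 9395 genes higher and 867 lower over all genes, 0 of the 7 genes lower, 0 chaperone genes lower, 6 bHLH-PAS genes higher and 1 lower, 8 coregulator genes higher and 1 lower, 16 PARP genes higher and 1 lower, and 11 LPCAT and PAF genes higher and 0 lower. The causes were not tested beyond the shift of the median.

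With a log2 fold change of at least 1 required, 1839 genes were higher and 429 lower, 0 of the 7 genes were lower, and the lists held 1 AHR response gene lower, 1 chaperone gene higher and 0 lower, 1 bHLH-PAS gene higher and 1 lower, 0 coregulator genes and 0 PARP genes in either direction, 0 LPCAT and PAF genes lower and 5 HIF response genes higher. DESeq2 called 4 chaperone and 5 PARP genes higher and 3 bHLH-PAS genes lower, and an adjusted p under 0.01 left 4 chaperone and 5 PARP genes higher. At least 10 counts in every library left 3 AHR response genes higher, with Cyp1a2, Nqo1 and Serpinb2 no longer tested. It left 3 bHLH-PAS genes lower, with Npas1, at 7 and 7 counts in the Tumor libraries, no longer tested. Npas1 is named here after its values were seen, and the rest of that drop was not traced. Without Control replicate 2, 2 LPCAT and PAF genes were lower. Overlaps on the other strand numbered 5. The Ahr to Arnt ratio without division by length was 0.0752 in the Control and 0.693 in the Tumor libraries.

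The labels do not say that the shared replicate numbers pair the libraries. Deviations of same-numbered libraries correlated at -0.0028 over 14256 genes, so no shared replicate effect was seen. With 2 libraries per group this value cannot exclude a pairing. With the replicate number as a block, 4021 genes were higher and 3425 lower, and no call among the 7 genes changed. Ahrr and Arnt2 rest on at most 19 counts, which limits what can be seen of them.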

Other observations

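Capns2, a gene that lies within an intron of Lpcat2 on the same strand, had 17 and 25 counts in the Control and 42 and 72 in the Tumor libraries, a log2 fold change of 1.32 ± 0.323 (SE) beside 1.28 ± 0.0596 (SE) for Lpcat2. Ptges3-ps had -0.35 ± 0.0937 (SE), beside -0.35 ± 0.0473 (SE) for Ptges3, and without Control replicate 1 it was -0.20 and not called. Ugt1a6b, too low to be tested, had a pooled Tumor to Control ratio of 9.35, with an exact 95% counting interval of 2.27 to 82.5.

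Of 10 promoters of 9 AHR response genes, 3 held GCGTG, and of 12 promoters of 8 HIF response genes 7 did. Of all promoters 32.4% did, and a match does not show that AHR binds there.

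Other marker lists moved as well, beside 29.0% of all tested genes called higher and 24.8% called lower. Summed levels went from 39.8 to 40.0 CPM in the Control to 165.3 to 170.4 CPM in the Tumor libraries for monocyte and interstitial macrophage markers, with 3 of 8 higher and 4 lower. Itgam, which granulocytes also express, carried that rise, and the other 7 markers summed to 38.7 to 38.9 CPM in the Control and 34.9 to 37.0 CPM in the Tumor libraries. Summed levels went from 16.2 to 16.3 CPM to 38.8 to 40.6 CPM for dendritic cell markers, with 3 of 8 higher and 2 lower. Club cell markers went from 83.2 to 86.4 CPM to 30.7 to 31.5 CPM, with 2 of 4 lower.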
